A study of Mus musculus with 15 samples.

Results

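The liver makes cholesterol and fatty acids from acetyl-CoA, and 32 genes of these pathways and of their control by SREBP transcription factors were followed in the livers of ESR1KO and WT mice of both sexes. They were listed by name and by the function of their products, with earlier results of these data known: 18 enzymes of cholesterol synthesis, 5 genes for the SREBP factors, their anchors in the endoplasmic reticulum and a sterol carrier, 7 genes of fatty acid synthesis, and 2 genes of glycerolipid assembly and lipid droplets. All 32 were among the 55573 genes counted, and all 32 were among the 17655 genes that passed the filter on low counts. Cholesterol synthesis runs from acetyl-CoA through mevalonate, isoprenoid diphosphates and squalene to lanosterol, which is then trimmed to cholesterol. SREBP2, encoded by *Srebf2*, mainly drives the sterol enzymes and SREBP1, encoded by *Srebf1*, mainly drives fatty acid synthesis, and both are held in the endoplasmic reticulum by INSIG proteins until sterol levels fall. In liver, SREBP1c is also raised by insulin and by oxysterol receptors, so lipogenic genes follow feeding.

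RNA-seq was performed on livers of 8-week-old mice, with 1 library per mouse, from 8 females (3 WT and 5 ESR1KO) and 7 males (3 WT and 4 ESR1KO). ESR1KO mice were homozygous for a deletion of exon 3 of *Esr1*, the gene for estrogen receptor alpha (strain B6N(Cg)-Esr1tm4.2Ksk/J), bred from heterozygous parents, and the WT mice were their controls. The deletion is present in every tissue and the study describes raised testosterone in both sexes of these mice, so an effect of the receptor in liver cannot be told apart from one of other organs or of testosterone. Feeding state and hour of collection are not given in the sources used here. A further sequencing run was made for libraries of low yield, which the study does not name.

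Total counts lay between 27799100 and 78624800 per mouse. *Esr1* RNA, counted over the whole gene and not over exon 3 alone, had levels of 74.7 to 88.2 CPM (counts scaled to a library of 1000000) in WT females and 25.0 to 52.0 in WT males. Female ESR1KO livers had 9.67 to 19.7 and male ones 8.22 to 16.1, so every ESR1KO mouse lay below every WT mouse. Summed hepatocyte markers were at 74025 CPM or more in every library. None of 5 adipocyte markers passed the filter on low counts, and their sum was at most 0.157 CPM in any mouse, with no count for *Lep*. The share of RNA from hepatocytes and the RNA made by each hepatocyte cannot be told apart in whole liver. Adjusted p-values come from the quasi-likelihood test of edgeR, unless DESeq2 is named, and were adjusted by the method of Benjamini and Hochberg over all 17655 genes. Genes with an adjusted p under 0.05 are referred to as called.

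The sequences upstream of the start sites are shown first, since SREBP binds sterol regulatory elements and acts there with factors that bind CCAAT boxes. RefSeq promoters of GRCm38.p6, each with 250 bases before and 50 bases after a start, were found for 28 of the 32 genes, and *Fdft1*, *Fdps*, *Sqle* and *Stard4* had none in the table. The core of the sterol regulatory element, TCACNCCAC on either strand, was in 1 of 28 genes, *Hmgcs1*, against 1.44% of 27025 genes with a promoter. CCAAT, on either strand, was in 26 of 28 genes (92.9%; absent from *Acat2* and *Acaca*) against 41.1% of all genes. Some genes have more than 1 promoter, and by promoter CCAAT was in 27 of 37 (73%) against 37.4% of all 32851. Matches in the 50 bases after the start are counted too. CACGTG, the E-box that SREBP1 and ChREBP also bind, was in 4 of 28 genes (*Hsd17b7*, *Sc5d*, *Dhcr7* and *Insig1*) against 8.09% of all genes. These are matches of letters, and GC content and promoter type were not matched between the lists. The stretches below are read 5′ to 3′ on the strand of the gene with the matched letters in capitals, and ATTGG is CCAAT on the other strand.
Hmgcs1, sterol regulatory element core, chr13:119690184-119690252 (+): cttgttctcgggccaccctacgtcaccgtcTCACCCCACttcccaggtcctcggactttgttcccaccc
Srebf2, CCAAT, chr15:82147104-82147168 (+): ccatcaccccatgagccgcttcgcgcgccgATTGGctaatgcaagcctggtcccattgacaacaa
Fasn, CCAAT, chr11:120824603-120824667 (-): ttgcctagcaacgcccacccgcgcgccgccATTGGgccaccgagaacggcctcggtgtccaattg
Gpam, CCAAT, chr19:55127278-55127342 (-): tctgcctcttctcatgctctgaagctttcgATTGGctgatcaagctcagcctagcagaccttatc
Pnpla3, CCAAT, chr15:84167687-84167751 (+): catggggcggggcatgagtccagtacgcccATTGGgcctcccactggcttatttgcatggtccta
Me1, CCAAT, chr9:86687451-86687515 (-): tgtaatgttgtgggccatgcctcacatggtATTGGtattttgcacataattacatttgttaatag

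The *Hmgcs1* match began 137 bases before the start. *Srebf2*, *Fasn*, *Gpam*, *Pnpla3* and *Me1* are shown because the results below turn on them, and their matches began 135, 90, 74, 99 and 208 bases before a start. *Fasn* held 3 CCAAT matches in all, of which the other two overlap in a single CCAATTGG that reads the same on both strands. Of the 2 RefSeq starts of *Me1*, the one with the match lies inside the span that GENCODE gives the gene, and the other had no match.

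Estimates for the genes of fatty acid and glycerolipid synthesis were higher in ESR1KO males than in WT males, and 3 of these genes passed the test, while none of the sterol enzymes did. In males, 3 of the 32 genes rose, *Me1*, *Gpam* and *Pnpla3*, where 0.833% of all genes tested rose, and 0 of 32 fell, where 0.583% of all genes did. The estimate was higher in ESR1KO males for 9 of 9 lipogenic and glycerolipid genes, with a median log2 fold change of 1.40 and a range of 0.76 to 4.11, against a median of -0.0011 over all genes. All 4 ESR1KO males lay above all 3 WT males in 12 of 32 genes and below them in 0, where 8.56% and 7.35% of all genes did so. Of these 12 genes, 8 were lipogenic or glycerolipid genes. All were measured in the same males and move together between mice, as described below, so these counts are not those of independent genes. In females, 0 of 32 genes rose and 1 fell, *Srebf2*, where 3.14% of all genes rose and 2.57% fell, and the estimates of the 9 lipogenic and glycerolipid genes were between 0.07 and 0.98 with a median of 0.31. DESeq2 called 1 of the 32 genes higher and 1 lower in females, where it called 874 and 672 of all 17655 genes.

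**Figure D1:**
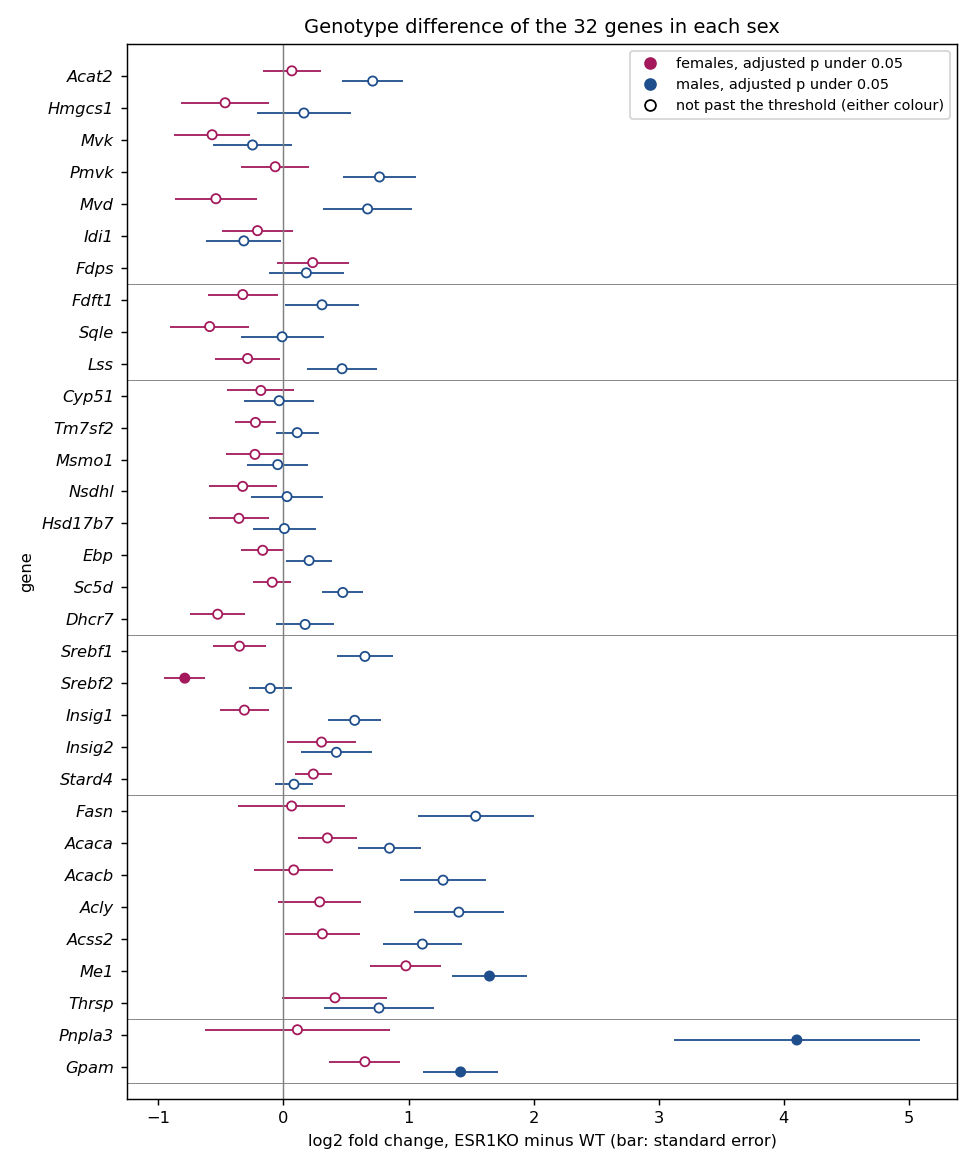
Log2 fold change, ESR1KO minus WT, of each of the 32 genes in females (red) and males (blue) with its standard error, in order of pathway role; filled points passed an adjusted p under 0.05. The 9 lipogenic and glycerolipid genes at the bottom lie between 0.76 and 4.11 in males and between 0.07 and 0.98 in females, and the filled points are *Srebf2* in females and *Me1*, *Pnpla3* and *Gpam* in males.

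*Srebf2* (ENSMUSG00000022463; chromosome 15, 82147181 to 82205379, plus strand of GRCm38) encodes SREBP2, the factor that drives the sterol enzymes and LDL uptake. It was at 58.4, 40.3 and 44.7 CPM in the 3 WT females and at 19.7, 22.6, 31.2, 32.7 and 32.1 CPM in the 5 ESR1KO females, so that every ESR1KO female lay below every WT female. It was at 31.1, 37.1 and 43.7 CPM in WT males and at 35.7, 35.1, 34.4 and 33.7 CPM in ESR1KO males, where the groups overlap. In females *Srebf2* fell by 0.79 on the log2 scale (standard error 0.163, adjusted p = 0.00913). It was the only one of the 32 genes in which ESR1KO females did not overlap WT females, with 0 genes above and 1 below, where 8.03% of all genes lay above and 7.61% below. Without WT female 1, the mouse with the highest level, the log2 fold change was -0.62 and the adjusted p was 0.0776. In males the difference was -0.11 (standard error 0.173, adjusted p = 0.878). Subtracting the male effect from the female effect gave -0.68 (standard error 0.240, adjusted p = 0.208), which did not pass the threshold.

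*Srebf1* (ENSMUSG00000020538; chromosome 11, 60199089 to 60222581, minus strand) encodes SREBP1, the lipogenic factor, and its gene-level counts do not separate the transcripts for SREBP1a and SREBP1c. Its levels were 369, 794 and 796 CPM in WT females, with 1 mouse far under the other two, and 393, 477, 636, 544 and 507 CPM in ESR1KO females, which lay among them. WT males were at 436, 447 and 354 CPM and ESR1KO males at 760, 564, 593 and 676 CPM, so that all ESR1KO males lay above all WT males. The log2 fold change was 0.65 in males (standard error 0.226, adjusted p = 0.213) and -0.35 in females (standard error 0.211, adjusted p = 0.339), and neither passed the threshold. The difference between these effects was -1.0 (standard error 0.309, adjusted p = 0.134). Without WT female 1 it was -1.29 with an adjusted p of 0.00808. In the other 14 of 15 fits that left out 1 mouse the adjusted p was 0.05 or more, up to 0.320 (without WT female 3).

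The INSIG proteins retain SREBP in the endoplasmic reticulum, and *Insig1* is itself an SREBP target. The mean of *Insig1* was 500 ± 94.5 CPM in WT males (SD, n = 3) against 742 ± 142 in the ESR1KO males (SD, n = 4), with overlapping groups and an adjusted p of 0.255. *Insig2*, whose product does the same and whose liver transcript insulin lowers, had means of 79.3 ± 28.8 CPM in WT males (SD, n = 3) and 106 ± 36.1 in ESR1KO males (SD, n = 4). *Stard4*, the carrier that moves cholesterol between membranes, had a log2 fold change of 0.08 in males and 0.24 in females. Neither *Insig1*, *Insig2* nor *Stard4* was called in any of the 5 contrasts.

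Fatty acid synthesis begins with cytosolic acetyl-CoA, made by ATP citrate lyase (*Acly*) from citrate and by *Acss2* from acetate. Malic enzyme (*Me1*) supplies NADPH, acetyl-CoA carboxylases (*Acaca*, *Acacb*) make malonyl-CoA, and fatty acid synthase (*Fasn*) builds palmitate. *Thrsp*, or Spot 14, is a lipogenic protein that follows thyroid hormone and carbohydrate. The next step toward triglyceride is the acylation of glycerol-3-phosphate by *Gpam*, and *Pnpla3* encodes a lipid droplet protein that is a target of SREBP1c.

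*Me1* (ENSMUSG00000032418; chromosome 9, 86581371 to 86695953, minus strand) was at 148, 151 and 144 CPM in WT males, the narrowest spread of any of the 32 genes in that group, with a coefficient of variation of 2.53%. ESR1KO males were at 494, 287, 554 and 514 CPM. All 4 lay above all 3 WT males, and ESR1KO male 2 was the nearest to them. The log2 fold change was 1.65 (standard error 0.302, adjusted p = 0.00904), and *Me1* kept an adjusted p under 0.05 in 13 of 15 fits that left out 1 mouse, the exceptions being the fits without WT male 1 (0.0503) and without WT male 3 (0.0610). WT females were at 111, 180 and 108 CPM and ESR1KO females at 214, 259, 321, 384 and 136 CPM. In females 4 of 5 ESR1KO mice lay above all WT mice, and ESR1KO female 5 lay among them. The log2 fold change in females was 0.98 (standard error 0.285, adjusted p = 0.0542), which did not pass the threshold. The adjusted p was 0.05 or more in 12 of 15 fits that left out 1 mouse. It ran from 0.0107 (without ESR1KO female 5, log2 fold change 1.14) to 0.221 (without WT female 3). The other alternatives, run with edgeR or DESeq2, gave *Me1* in females adjusted p-values between 0.00468 and 0.137. Of the exon bases of *Me1*, 30 are shared with an antisense gene, A330041J22Rik.

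*Gpam* (ENSMUSG00000024978; chromosome 19, 55067268 to 55127238, minus strand) was at 531, 508 and 356 CPM in WT males and 1749, 724, 1191 and 1302 CPM in ESR1KO males. The groups did not overlap, and ESR1KO male 1 stood highest and male 2 lowest of the knockouts. *Gpam* rose by a log2 fold change of 1.42 (standard error 0.302, adjusted p = 0.0252). The adjusted p was 0.05 or more in 6 of 15 fits that left out 1 mouse, at most 0.158 (without WT male 3), with a log2 fold change between 1.20 and 1.60. WT females were at 357, 439 and 384 CPM and ESR1KO females at 373, 713, 748, 841 and 412 CPM, where ESR1KO females 1 and 5 lay among the WT mice. The difference in females was 0.65 (standard error 0.284, adjusted p = 0.186).

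*Pnpla3* (ENSMUSG00000041653; chromosome 15, 84167837 to 84187236, plus strand) had the largest log2 fold change of the 32 genes between genotypes in males and between WT sexes, and the highest coefficient of variation in every group but WT males. WT males were at 0.79, 1.0 and 0.68 CPM, from 32, 41 and 43 counts, and ESR1KO males were at 36, 6.0, 8.4 and 7.0 CPM. WT females were at 2.6, 21 and 6.7 CPM and ESR1KO females at 11, 15, 18, 10 and 0.88 CPM. All ESR1KO males and all WT females thus lay above all WT males, while ESR1KO female 5 was as low as a WT male. Between genotypes in males the log2 fold change was 4.11, a 17.2-fold difference (standard error 0.982, adjusted p = 0.0486). Between WT females and WT males it was 3.62 (standard error 0.998, adjusted p = 0.0469). Both calls were near the threshold: in each contrast the adjusted p was 0.05 or more in 11 of 15 fits that left out 1 mouse, up to 0.220 (without WT male 3) and 0.233 (without WT female 2). Without ESR1KO male 1 the genotype difference in males was 3.13 (adjusted p = 0.130). In females the genotype difference was 0.11 (standard error 0.738, adjusted p = 0.948). Of the exon bases of *Pnpla3*, 105 are shared with Gm49513 on the same strand.

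**Figure D2:**
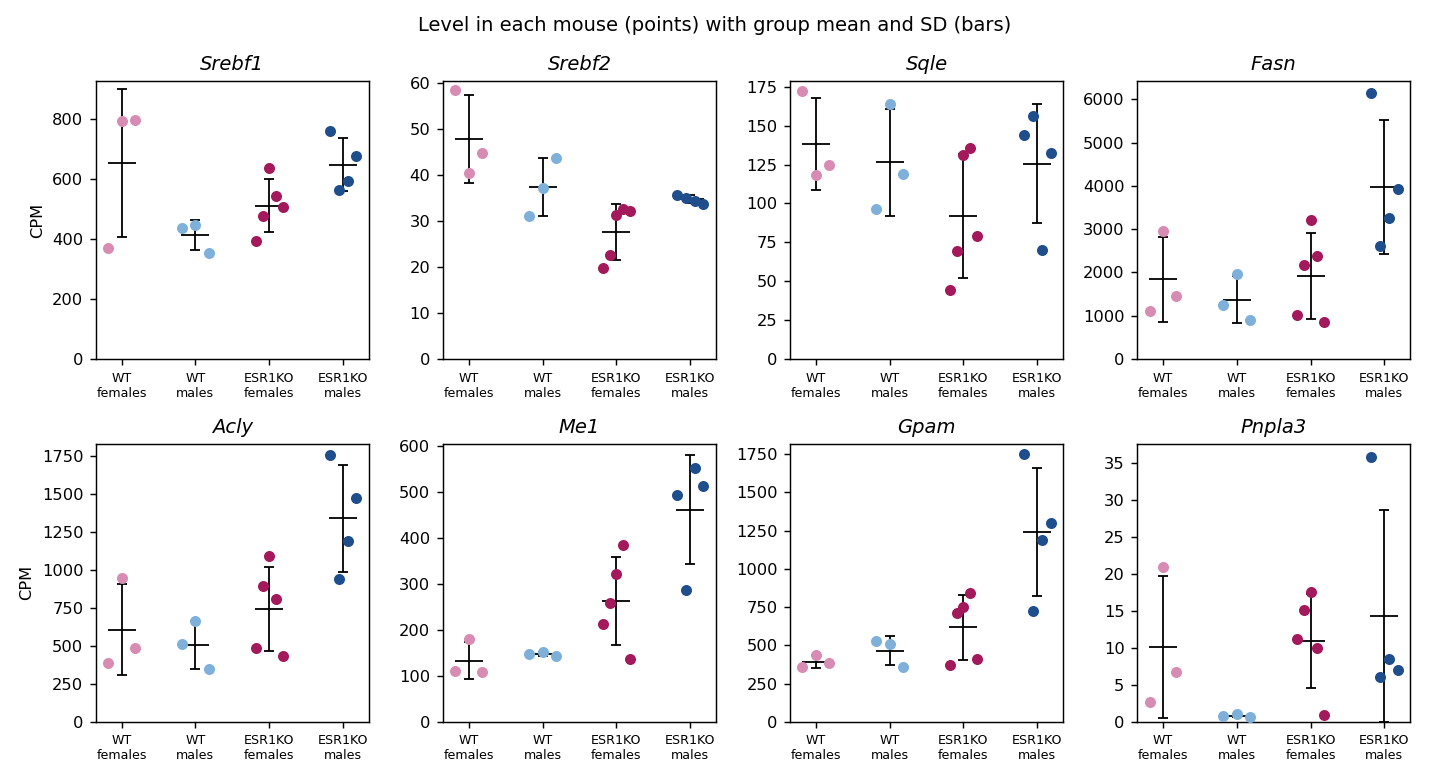
Level (CPM) of 8 genes in each mouse (points) with the mean and SD of each group (bars); n = 3 for both WT groups, 5 for ESR1KO females and 4 for ESR1KO males. ESR1KO males lie above every WT male for *Srebf1*, *Fasn*, *Acly*, *Me1*, *Gpam* and *Pnpla3*, and the 5 ESR1KO females lie below every WT female for *Srebf2* at 19.7 to 32.7 CPM.

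*Fasn* (ENSMUSG00000025153; chromosome 11, 120805846 to 120824547, minus strand) was at 1255, 1969 and 896 CPM in WT males and 6158, 2604, 3249 and 3928 CPM in ESR1KO males. The groups did not overlap, but both were spread, and the log2 fold change of 1.54 (standard error 0.464) had an adjusted p of 0.135. WT females were at 1106, 2964 and 1463 CPM and ESR1KO females at 1010, 2176, 3222, 2390 and 851 CPM, fully interleaved, with a difference of 0.07 (standard error 0.425, adjusted p = 0.947). The female effect less the male effect was -1.47 (standard error 0.616, adjusted p = 0.291).

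The other 5 genes of fatty acid synthesis were not called in males, with log2 fold changes of 1.40 for *Acly*, 1.28 for *Acacb*, 1.11 for *Acss2*, 0.85 for *Acaca* and 0.76 for *Thrsp* and adjusted p-values of 0.0695, 0.0822, 0.109, 0.126 and 0.551. *Acly* was at 512, 661 and 347 CPM in WT males and 1755, 939, 1189 and 1468 CPM in ESR1KO males. *Thrsp* was the only one of the 9 genes whose male groups overlapped, with WT males at 442, 758 and 423 CPM and ESR1KO males at 1170, 866, 616 and 1024 CPM. DESeq2's Wald test called *Acly*, *Acaca*, *Acacb* and *Acss2* in males in addition to *Me1*, *Gpam* and *Pnpla3*, 7 of 32 genes higher, where it called 1.81% of all genes higher. Of the 3 genes that edgeR called higher, 2 (*Me1* and *Pnpla3*) also had a log2 fold change of at least 1.5, where 0.317% of all genes passed both. In females none of these 5 genes had an adjusted p under 0.40. Exons of *Acss2* share 927 bases with genes on the other strand, and the strand setting of the counts is not given in the sources used here.

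The 18 sterol enzymes gave 0 calls in either sex (edgeR). At an unadjusted p under 0.05 there were 3 in males and 1 in females, where 11.9% and 22.5% of all genes passed, and DESeq2 called 0 in both sexes. In males 13 of 18 estimates were higher in ESR1KO mice, with a median log2 fold change of 0.17 and a range of -0.32 to 0.77. In females 2 of 18 were higher, with a median of -0.26 and a range of -0.59 to 0.23. The 18 genes were measured in the same mice and move together between mice, as described below, so these counts are not those of 18 independent genes. *Acat2* (acetoacetyl-CoA formation), *Pmvk* (phosphomevalonate kinase) and *Sc5d* (sterol C5 desaturation) were the 3 enzymes whose male groups did not overlap, with log2 fold changes of 0.71, 0.77 and 0.47 and adjusted p-values of 0.202, 0.264 and 0.204. *Dhcr7*, which completes cholesterol from its last precursor, had the lowest adjusted p of the 18 in females, 0.164 at a log2 fold change of -0.53.

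*Sqle* (ENSMUSG00000022351; chromosome 15, 59315077 to 59331192, plus strand), for squalene epoxidase, a control point of the pathway, shows the spread. It was at 172, 118 and 125 CPM in WT females and 44.3, 69.7, 131, 136 and 79.1 CPM in ESR1KO females. WT males were at 96.6, 164 and 119 CPM and ESR1KO males at 144, 156, 70.2 and 132 CPM. ESR1KO females alone ranged from 44.3 to 136 CPM, and all pairs of groups overlapped. The log2 fold change was -0.59 in females (standard error 0.314, adjusted p = 0.280), with a 95% confidence interval of -1.25 to 0.07 that spans a fall as well as no difference. In males it was -0.01 (standard error 0.333, adjusted p = 0.996), with an interval of -0.71 to 0.69.

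**Figure D3:**
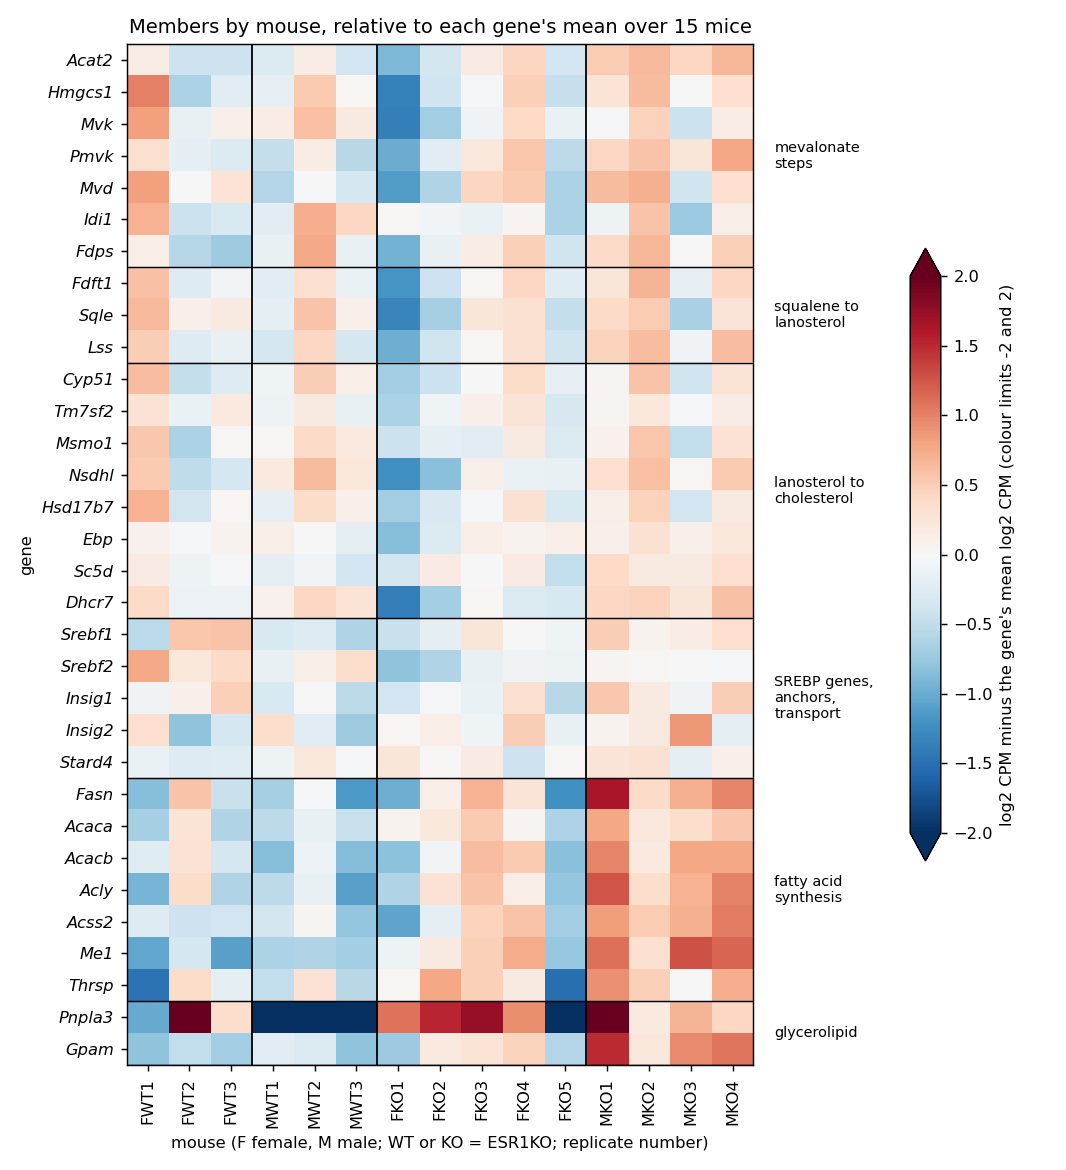
Log2 CPM of the 32 genes (rows, by pathway role) in each of the 15 mice (columns), minus the mean of that gene over all mice; red is above and blue below the mean, and colours end at -2 and 2. Mice are named by sex, genotype and replicate number (FWT1 is WT female 1, MKO1 is ESR1KO male 1). The lower rows, fatty acid and glycerolipid genes, are red in all 4 ESR1KO males except for a value near 0 for *Thrsp* in MKO3, and the sterol rows above them vary by column within every group.

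Mice of one group differed, and sterol and lipogenic genes did not order them in the same way. WT female 1 had the highest level of the 3 WT females for 18 of 18 sterol enzymes and the lowest for 6 of 9 lipogenic and glycerolipid genes, and WT female 2 had the lowest level for 16 of 18 sterol enzymes and the highest for 8 of 9 of the others. Among ESR1KO males, male 2 was highest for 13 of 18 sterol enzymes and lowest for 8 of 9 lipogenic and glycerolipid genes, while male 1 was highest for 7 of 9. WT male 2 was highest in both lists, for 17 of 18 and 8 of 9 genes. Among ESR1KO females, female 1 was lowest for 16 of 18 sterol enzymes and female 5 for 7 of 9 lipogenic and glycerolipid genes. The median coefficient of variation of the 9 lipogenic and glycerolipid genes was 39.1% in WT and 44.9% in ESR1KO females, and 28.6% in WT and 25.8% in ESR1KO males. That of the 18 sterol enzymes was 31.2% and 34.1% in females and 20.2% and 19.3% in males. The ESR1KO male with the fewest counts (male 1, 27799100) was highest for most lipogenic genes, the ESR1KO female with the most counts (female 5, 65665500) was lowest, and the part of depth in these levels was not tested.

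**Figure D4:**
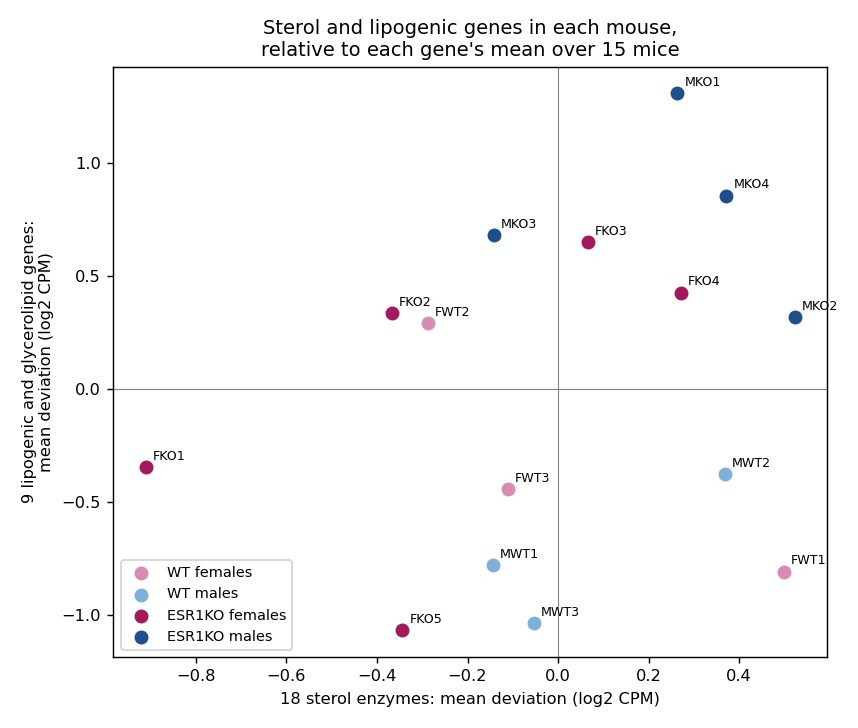
Mean over 18 sterol enzymes (horizontal axis) and over 9 lipogenic and glycerolipid genes (vertical axis) of log2 CPM minus the mean of each gene over 15 mice; each point is a mouse, coloured by group and named as sex, genotype and replicate. ESR1KO males lie between 0.32 and 1.31 on the lipogenic axis and WT males between -1.04 and -0.38, while on the sterol axis both lie within -0.14 and 0.52.

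Expressed per kilobase of exon, the mean levels over 15 mice spanned from 4.94 CPM per kb for *Srebf2* to 315 for *Thrsp*, followed by *Fasn* (215), *Insig1* (200), *Sc5d* (168), *Acly* (157) and *Hmgcs1* (147). The 7 genes of fatty acid synthesis had a median of 69.4 CPM per kb, the 7 mevalonate enzymes 32.9, the 8 enzymes from lanosterol to cholesterol 38.3 and the 3 from squalene to lanosterol 21.1. *Srebf1* was at 98.8 CPM per kb. *Pnpla3*, at 6.23, was next to the lowest.

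Between WT females and WT males the estimates lay on both sides of 0, with 18 of 32 higher in females. Of the 32 genes, 1 was called higher in females (*Pnpla3*, above) and 0 lower, where 2.67% and 2.2% of all genes were, and *Pnpla3* also passed a log2 fold change of 1.5, as 0.895% of all genes did. WT females lay above all WT males for 1 gene, *Pnpla3*, and below them for 1, *Stard4*, where 14.8% and 15.3% of all genes did so. The median log2 difference over the 32 genes was 0.07, against 0.01 over all genes. Summed hepatocyte markers were at 99884 to 107466 CPM in WT females and 74025 to 76006 in WT males, without overlap and with 1 of 5 called. Endothelial markers did not overlap either, at 393 to 405 and 269 to 379 CPM, with 0 of 5 called. Sums of cholangiocyte markers overlapped, with 2 of 4 called. The part of these differences in the estimates was not tested.

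Between ESR1KO females and ESR1KO males 0 of 32 genes were called in either direction by edgeR, where 0.159% of all genes were higher in females and 0.113% lower, although 14 had an unadjusted p under 0.05, as 17.5% of all genes did, and DESeq2 called 4 lower in females (*Acat2*, *Dhcr7*, *Me1* and *Gpam*), as it did 1.18% of all genes. The estimate was lower in ESR1KO females for 32 of 32 genes, with a median of -0.44 and a range of -1.05 to -0.10, against a median of 0.01 over all genes. These 32 estimates share the same 9 mice. Summed Kupffer cell markers differed between the same groups in the other direction, at 308 to 395 CPM in ESR1KO females and 236 to 307 in ESR1KO males, without overlap and with 1 of 5 called. Summed lymphocyte markers did not overlap either, at 26 to 36 CPM in ESR1KO females and 20 to 25 in ESR1KO males, with 0 of 4 called. The part of either in these estimates was not tested. The groups did not overlap for 3 genes, *Sc5d*, *Dhcr7* and *Srebf2*, all lower in females, and for 0 genes in the other direction, where 2.66% and 2.56% of all genes did so. *Dhcr7* had the lowest adjusted p, 0.0731, at a log2 difference of -0.89: ESR1KO females were at 24.4, 39.5, 65.3, 51.7 and 50.5 CPM and ESR1KO males at 84.6, 87.7, 75.3 and 95.2 CPM.

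The test of whether the genotype effect differed between the sexes called 0 of 32 genes with edgeR, where 1.94% of all genes were called in either direction, with 11 at an unadjusted p under 0.05 (14.3% of all genes) and 2 called by DESeq2, *Srebf1* and *Pnpla3* (3.36% of all genes). The estimate was more positive in males for 29 of 32 genes, with a median of -0.63 for females minus males, against -0.01 over all genes. The effect in females, the effect in males and their difference use the same WT mice as controls and are not independent. By estimate, 13 of 32 genes were higher in ESR1KO mice of both sexes, 6 were lower in both, and 13 were lower in females and higher in males.

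Of 46 other genes of the pathway, 45 were tested, among them enzymes that desaturate and elongate fatty acids. In males 2 of 45 rose and 0 fell, where 0.833% and 0.583% of all genes did: *Scd1*, stearoyl-CoA desaturase, with 4591, 4792 and 4565 CPM in WT and 21976, 12548, 20326 and 13889 CPM in ESR1KO males (log2 fold change 1.89, standard error 0.434, adjusted p = 0.0396), and *Elovl5*, a fatty acid elongase, with 299, 331 and 280 CPM in WT and 1071, 866, 1219 and 905 CPM in ESR1KO males (1.74, standard error 0.300, adjusted p = 0.00608). Neither pair of groups overlapped. *Elovl5* kept an adjusted p under 0.05 in all 15 fits that left out 1 mouse (at most 0.0498), and *Scd1* in 8 of 15. In females 0 of 45 rose and 1 fell, where 3.14% and 2.57% of all genes did. The gene that fell was *Abcg5*, a subunit of the sterol exporter into bile: WT females were at 130, 113 and 141 CPM and ESR1KO females at 79.0, 88.5, 87.4, 99.8 and 101 CPM, without overlap (log2 fold change -0.49, standard error 0.123, adjusted p = 0.0282, and 0.05 or more in 3 of 15 fits that left out 1 mouse). Its counts share 82 exon bases with *Abcg8* on the other strand. *Abcg8* was not called, but it did not overlap either, at 116 to 144 CPM in WT females and 53.4 to 113 in ESR1KO females. ESR1KO females lay below all WT females for 6 of the 45 genes and above them for 1, where 7.61% and 8.03% of all genes did so.

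Of the 17 lipogenic partners in that list, 14 estimates were higher in ESR1KO males with a median of 0.56. The 9 genes of SREBP processing and turnover gave 0 calls in either sex, with medians of -0.03 in males and -0.04 in females (edgeR; 1 in females and 0 in males at an unadjusted p under 0.05, and 0 by DESeq2). The 8 oxysterol receptors and targets had a median of 0.05 in males and -0.13 in females, where 8 of 8 estimates were lower. *Pgd*, an NADPH-making enzyme of the pentose phosphate pathway named after its values were seen, was the only pathway gene that edgeR called between ESR1KO females and ESR1KO males, with 0 of 45 higher in females and 1 lower, where 0.159% and 0.113% of all genes were: it was at 16.8, 21.6, 32.2, 18.7 and 20.8 CPM in females and 49.3, 35.7, 40.8 and 37.9 CPM in males (log2 difference -0.89, standard error 0.160, adjusted p = 0.0230). Every ESR1KO female lay below every ESR1KO male. The adjusted p of *Pgd* was 0.05 or more in 5 of 15 fits that left out 1 mouse, at most 0.0838 (without ESR1KO male 1). It was also above 0.05 with the replicate number as a block, and 0.0865 in a fit of these 2 groups alone.

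Markers of other liver cells were followed beside the lipogenic genes. Summed Kupffer cell markers were between 236 and 307 CPM in ESR1KO males and between 297 and 315 in WT males, with 0 of 5 called between them. Cholangiocyte markers, of which 2 of 4 were called in males, summed to 4.69 to 5.50 CPM in ESR1KO males and 3.28 to 4.31 in WT males. Hepatocyte markers summed to 86143 to 94960 CPM in ESR1KO males and 74025 to 76006 in WT males, without overlap, with 0 of 5 called. The part of these differences in the lipogenic levels was not tested.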

How the data were processed

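Liver RNA of 15 mice was sequenced by the authors as paired-end reads, trimmed with Trimmomatic 0.36, aligned to GRCm38 with STAR and counted per gene with HTSeq (0.6.0 in the submitters' processing notes). The deposited values are raw counts per Ensembl gene, without normalization. Which annotation was counted, whether strand was used and how multimapping reads were handled is not given in the sources used here. All 15 columns matched a mouse, and 0 were left out. Groups follow the sex and genotype in the labels. Total counts were between 27799100 and 78624800, and their number limits the precision of low genes such as *Pnpla3*.

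The test was that of edgeR 4.0.16 under R 4.3.3 (filterByExpr with the 4 groups, TMM scaling, quasi-likelihood F test) and 1 mean per group over all 15 libraries, and p-values were adjusted by Benjamini-Hochberg over 17655 genes. Each library came from a separate mouse. CPM values use the TMM factors. DESeq2 1.42.0, other scalings and filters, only the groups compared, a replicate block and each mouse left out were alternatives. The paper names both tools, and edgeR was used here as the main test. The model was also run on simulated counts drawn from its own fitted dispersions. Those counts hold no shifts shared by many genes of 1 mouse, so the run does not bear on how calls depend on single mice. Values are given for members called in any contrast and for *Srebf1*, *Srebf2*, *Sqle*, *Fasn* and *Pnpla3*, and for other pathway genes called in a genotype contrast. The members and lists were chosen with earlier results of these data known. Gene positions and exon lengths are those of GENCODE M21, which may differ from the annotation that was counted. Of 6 hepatocyte markers, 5 were found.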

Additional observations from a re-analysis of the deposited data

Results flagged for a closer look

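A gap between an extreme mouse and its neighbour, on the log2 CPM scale, was compared with Dixon's critical value. This was done for each of the 32 genes in the 2 groups of more than 3 mice, 64 tests in all. Chance flags about 1 group in 20. There were 2 flags, no more than that rate would give, and ESR1KO female 5 was the lowest mouse of its group both times. For *Idi1*, isopentenyl diphosphate isomerase, it was at 43.7 CPM against 62.1 to 70.5 CPM in the other 4 ESR1KO females. On the log2 scale the gap was 0.735 of the range of the group, and in CPM it is a smaller part. For *Pnpla3* this mouse was at 0.875 CPM against 10 to 18 CPM. On the log2 scale the gap was 0.81 of the range, and in CPM it is again a smaller part. Without ESR1KO female 5, the genotype difference of *Pnpla3* in females was 1.23 on the log2 scale in place of 0.11. Over all 15 fits that left out 1 mouse this difference was between -0.35 and 1.23, and its adjusted p was never under 0.468.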

How the results depend on the processing

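Of the genes called in the text, all except *Elovl5* in males lost the call in at least 1 fit that left out a mouse. Of the 32 genes, edgeR called 1 between the sexes of WT mice, 0 between those of ESR1KO mice, 1 between genotypes in females, 3 in males and 0 for the difference of the genotype effects. In the same order DESeq2 called 1, 4, 2, 7 and 2, no filter on low counts gave 1, 4, 2, 8 and 1, and an unadjusted p gave 2, 14, 4, 13 and 11. Of all 17655 genes, DESeq2 called 629 higher and 596 lower between WT sexes, and 874 higher and 672 lower in females. An unadjusted p under 0.05 was found for 3060 genes between WT sexes. In the other contrasts it was found for 17.5%, 22.5%, 11.9% and 14.3% of all genes. Counts over all genes were not made for the other settings. Fitting only the groups compared gave 0 in females and 10 in males, and requiring a log2 fold change of 1.5 or more gave 0 in females. The cause of these differences was not tested. Of the other pathway genes, the main counts of 0, 1, 1, 2 and 0 became 0, 3, 3, 3 and 1 with DESeq2. No filter gave 2 in females, 4 in males and 1 for the difference, and 1 CPM in 3 libraries gave 2 in females. Fitting only the groups compared gave 4, 0, 0 and 6 in the 4 pairwise contrasts.

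The replicate numbers were not used as pairs in the main test. Over all genes tested, same-numbered mice had correlated deviations of over 0.1 in 1 of 13 pairs (-0.195 to 0.140). A pairing that acts on only some genes need not show in such a correlation. With the replicate block, the 32 genes gave 2 calls in females, *Srebf2* and *Me1*. Other pathway genes gave 1 call between WT sexes, 0 between ESR1KO sexes and 6 in females, and *Pnpla3* was at 0.048 in place of -0.37 (log2) between ESR1KO sexes.

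With each mouse left out in turn, the 32 genes gave 0 to 2, 0 to 1, 0 to 2, 0 to 5 and 0 to 1 calls in the order above. In males there were 0 calls without WT male 1 or WT male 3, and 5 without ESR1KO female 5, whose group is not in that contrast. Other pathway genes gave 0 to 2, 0 to 2, 0 to 4, 1 to 2 and 0 to 2. Log2 estimates that changed sign had not passed the test: *Sqle* (-0.059 to 0.36) and *Fasn* (-0.10 to 0.78) between WT sexes, *Pnpla3* between ESR1KO sexes (-0.63 to 0.58), *Fasn* (-0.20 to 0.59) and *Pnpla3* (-0.35 to 1.23) in females, and *Sqle* (-0.17 to 0.22) and *Srebf2* (-0.22 to 0.024) in males. *Me1*, *Gpam*, *Pnpla3*, *Scd1* and *Elovl5* in males and *Srebf2* and *Abcg5* in females kept their direction under every alternative run for them.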
